A study of Mus musculus with 18 samples.

Results

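Genes that mark vascular endothelial cells, *Pecam1*, *Cdh5*, *Kdr*, *Flt1*, *Tie1*, *Tek*, *Cldn5*, *Egfl7*, *Emcn* and *Vwf*, were followed in bulk RNA-seq of mouse dorsal root ganglia (DRG). The 10 genes were named by symbol as markers of endothelium, by a rule that has no threshold on a measured value, and all 10 were found among the 36737 genes counted. L3–L5 DRG came from adult CD1 mice, an outbred stock with no engineered allele named in the labels. The 3 groups were Sham (sham surgery), Fracture (tibial fracture with vehicle) and Fracture+PDX (tibial fracture with protectin DX, a lipid mediator made from docosahexaenoic acid). Each group held 6 libraries from separate mice, 3 males and 3 females. Ganglia of the 2 fracture groups were collected on day 3, while the day of the Sham group and the dose of PDX for these libraries are not given in the sources used here.

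Endothelial cells line every vessel and control what leaves the blood. DRG are richly supplied with capillaries, and their vessels are more permeable around the neuronal cell bodies than those of the brain, because many lack a tight barrier. Vascular endothelial growth factor (VEGF) acts through KDR (VEGFR2), the main signaling receptor, whereas FLT1 (VEGFR1) binds VEGF tightly and signals weakly, and its soluble form acts as a decoy. Angiopoietins act through TEK (TIE2), with TIE1 as its partner, and VE-cadherin, the product of *Cdh5*, holds endothelial cells together.

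Total counts on genes ran from 63235040 to 82824942 over the 18 libraries. *Xist* and *Ddx3y* matched the labelled sex in all 18 libraries. Reads were also counted on genes known from placenta and from skeletal muscle, and where these reads came from was not tested. The 16 placenta genes on the marker list (such as *Prl3b1*, a placental lactogen, and *Tpbpa*, a trophoblast marker) summed to between 215 and 679 CPM (counts scaled to library size, with TMM factors) in Sham, between 39.4 and 323 CPM in Fracture and between 36.0 and 170.0 CPM in Fracture+PDX libraries, in males as well as females. None of the 16 was at 0 in a Sham library, 1 was at 0 in 1 Fracture library, and at most 2 were at 0 in a Fracture+PDX library. Skeletal muscle genes, 11 on the list, summed to between 29.9 and 630 CPM in Sham, between 56.5 and 1235 CPM in Fracture and between 16.5 and 585 CPM in Fracture+PDX libraries. Neither set marks a cell type of the ganglion.

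All 10 endothelial genes were detected in every library. Levels were compared between genes in FPKM, the deposited values normalized for transcript length and depth. *Cldn5*, which encodes the tight junction protein claudin-5, was first at 11.4 ± 1.92 FPKM (SD, n = 18), followed by *Egfl7* (9.74 ± 0.681), a matrix protein that endothelial cells secrete, and *Cdh5* (5.90 ± 1.80). *Pecam1* (CD31) had 2.95 ± 0.406, *Tie1* 2.28 ± 0.143, *Flt1* 2.12 ± 0.642 and *Vwf* (von Willebrand factor) 1.78 ± 0.311 FPKM. *Emcn* (endomucin) had 1.62 ± 0.157, and *Kdr* and *Tek* were last with 1.24 ± 0.175 and 1.24 ± 0.164 FPKM. The ranges of neighbours in this order overlapped except for *Cdh5* and *Pecam1*, although *Egfl7* lay above *Cdh5* in 18 of 18 libraries. *Kdr* lay above *Tek* in 10 of 18 libraries, so their order was not resolved. The place of *Flt1* differed between the groups. In Sham it had 2.89 ± 0.523 FPKM, above *Tie1* at 2.28 ± 0.136, and in Fracture 1.75 ± 0.228, below *Tie1* at 2.26 ± 0.110. In Fracture+PDX it had 1.72 ± 0.0807, below *Tie1* at 2.32 ± 0.193 (SD, n = 6 each). The order of *Flt1* and *Vwf* (1.78 ± 0.401) in Fracture+PDX was not resolved, as *Flt1* lay above *Vwf* in the males and below it in the females. For scale, *Nefl*, a neurofilament gene of neurons, had 1610 ± 74.0 FPKM.

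After fracture *Cdh5* and *Flt1* fell, to 60.1% and 61.1% of their Sham levels, and the other 8 endothelial genes did not pass the test. In a whole ganglion the level of any single gene cannot tell fewer cells from less of its transcript per cell, and beside these falls the mean log2 CPM of the other 8 was 4.05 ± 0.0765 in Sham and 3.97 ± 0.104 in Fracture (SD, n = 6 each). The 16 placenta genes were lower in the same comparison, with a median log2 fold change of -1.79, and with their mean level as a covariate *Cdh5* and *Flt1* were at -0.34 and -0.24 on the log2 scale and neither was called (adjusted p = 0.738 and 0.776, edgeR). Sham and Fracture were compared with edgeR's quasi-likelihood test with sex as a covariate, and calls were made at an adjusted p (Benjamini-Hochberg, over all 20659 genes tested) under 0.05. Of these, 603 (2.92%) were called, 225 (1.09%) higher and 378 (1.83%) lower after fracture. Of the 10 endothelial genes, 0 were called higher and 2 lower. Their median log2 fold change was -0.11, and that of all genes was 0.0021.

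*Cdh5* (ENSMUSG00000031871, chromosome 8 from 104101625 to 104144511 of GRCm38, plus strand) had a lowest, median and highest value of 26.5, 38.4 and 43.5 CPM in Sham. The values were 19.4, 22.6 and 25.7 CPM in Fracture and 21.1, 21.8 and 24.6 CPM in Fracture+PDX. Every library of either fracture group lay below every Sham library. For *Cdh5*, as for *Flt1* below, the share of all genes that separate in this way is not given here. The Sham library nearest to the fracture groups was female 3, at 26.5 CPM, and the other 5 held 35.5 CPM or more. *Cdh5* in Fracture was 60.1% of its Sham level, a log2 fold change of -0.73 (SE 0.12, adjusted p = 0.0117, edgeR), and in Fracture+PDX it was 59.8%, a log2 fold change of -0.74 (SE 0.099, adjusted p = 0.00216, edgeR). With the placenta genes as a covariate, chosen after seeing the data, these log2 fold changes were -0.34 (SE 0.13, adjusted p = 0.738) and -0.42 (SE 0.20, adjusted p = 0.965), neither called. The call in Fracture was also lost with the skeletal muscle genes as a covariate (-0.71, adjusted p = 0.0675, edgeR) and with a replicate block (-0.73, adjusted p = 0.0513, edgeR).

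The other junction genes among the 10, *Pecam1* and *Cldn5*, did not pass this test in any comparison of groups. *Pecam1*, an adhesion molecule of endothelial contacts, platelets and some leukocytes, had 21.8 ± 2.43 CPM in Sham, 20.8 ± 2.52 in Fracture and 18.4 ± 2.36 in Fracture+PDX (SD, n = 6 each). Its log2 fold change against Sham was -0.07 (SE 0.088, adjusted p = 0.762) with fracture and -0.24 (SE 0.081, adjusted p = 0.124) with fracture plus PDX in edgeR's test. *Cldn5* had 17.7 ± 3.39, 18.5 ± 3.41 and 17.3 ± 2.75 CPM in the same order, and its difference between Fracture and Sham was 0.07 (SE 0.14) on the log2 scale. The interval of 2 SE on either side ran from -0.21 to 0.35 for *Cldn5*, and that of *Cdh5* from -0.97 to -0.50.

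Of the VEGF receptors, *Flt1* was called and *Kdr* was not. *Flt1* (ENSMUSG00000029648, chromosome 5 from 147561604 to 147726011, minus strand) had a lowest, median and highest value of 29.6, 44.2 and 51.3 CPM in Sham, 21.1, 26.2 and 29.9 CPM in Fracture and 23.9, 25.9 and 27.3 CPM in Fracture+PDX. Below every Sham library lay 5 of the 6 Fracture and all 6 Fracture+PDX libraries, and the exception, Fracture male 1 at 29.9 CPM, overlapped only with Sham female 3 at 29.6 CPM. The log2 fold change of *Flt1* against Sham was -0.71 with fracture (SE 0.13, adjusted p = 0.0171, edgeR) and -0.73 with fracture plus PDX (SE 0.10, adjusted p = 0.00339, edgeR), or 61.1% and 60.4% of the Sham level. With the placenta covariate they were -0.24 (SE 0.12, adjusted p = 0.776) and -0.29 (SE 0.18, adjusted p = 0.965), neither called (edgeR). The call in Fracture was also lost with the muscle covariate (-0.68, adjusted p = 0.0893, edgeR) and with a replicate block (-0.70, adjusted p = 0.0742, edgeR). *Kdr* (ENSMUSG00000062960, chromosome 5 from 75932827 to 75978458, minus strand) had 13.6 ± 1.63 CPM in Sham, 11.7 ± 1.49 in Fracture and 11.9 ± 1.46 in Fracture+PDX (SD, n = 6 each). Its log2 difference of -0.22 between Fracture and Sham (SE 0.086) had an unadjusted p of 0.0236 and an adjusted p of 0.189 in edgeR's test, and the groups overlapped.

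**Figure D1:**
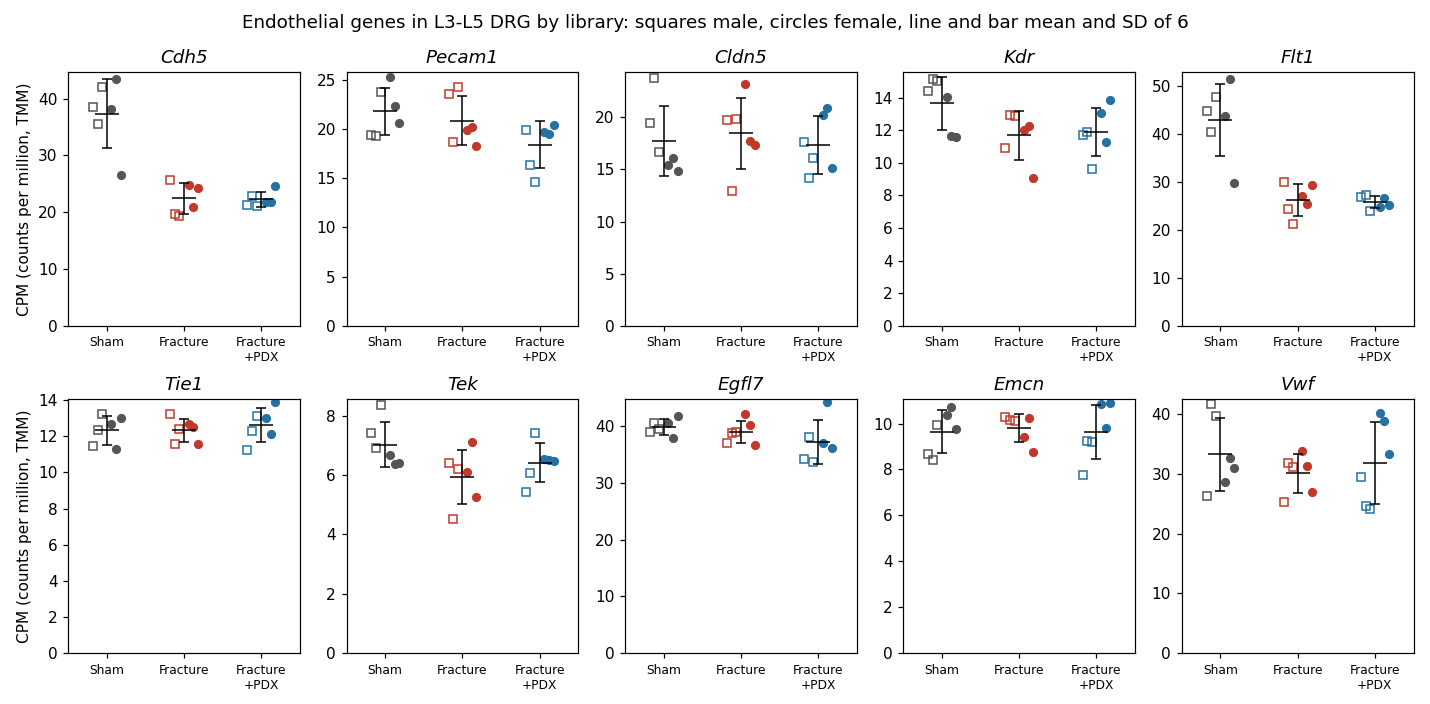
CPM of each of the 10 endothelial genes (y axes from 0) in the 18 libraries, by group; squares are males, filled circles females, and the line and bar are the mean and SD of 6. The Sham libraries lie above the others in Cdh5 and, with a single overlap, in Flt1, while the groups overlap in the other 8 genes.

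The upstream sequences of the VEGF receptor genes are shown because *Flt1* was called and *Kdr* was not, although the difference between the genes was not tested. RefSeq promoter windows of GRCm38.p6 matched 7 of the 10 genes, *Cldn5*, *Egfl7*, *Emcn*, *Flt1*, *Kdr*, *Tek* and *Tie1*. The 250 bases before each start site are printed 5′ to 3′ on the strand of the gene, with capitals for any match, on either strand, to AGGAAG (an ETS factor core), TGACGTCA (the cAMP response element), TATAAA (the TATA box) or ACGTG (the core of the hypoxia response element). The first lies at chr5:147726012-147726261 and the second at chr5:75978456-75978705, both on the minus strand.
Flt1: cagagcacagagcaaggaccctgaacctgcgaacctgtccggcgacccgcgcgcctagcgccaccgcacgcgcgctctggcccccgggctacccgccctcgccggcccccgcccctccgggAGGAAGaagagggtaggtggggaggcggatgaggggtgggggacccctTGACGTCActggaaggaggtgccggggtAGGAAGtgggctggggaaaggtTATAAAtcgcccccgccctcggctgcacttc
Kdr: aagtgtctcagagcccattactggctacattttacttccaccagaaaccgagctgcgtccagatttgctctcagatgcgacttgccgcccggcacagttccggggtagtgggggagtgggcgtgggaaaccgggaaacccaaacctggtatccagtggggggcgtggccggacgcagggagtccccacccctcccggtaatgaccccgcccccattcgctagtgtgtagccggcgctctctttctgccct
The *Flt1* window held 2 matches to AGGAAG, 1 to TGACGTCA and 1 to TATAAA, none of them overlapping, and the *Kdr* window held no match to any of the 4. Among 32851 windows of this length, AGGAAG was found in 29.5%, TGACGTCA in 1.55%, TATAAA in 12.4% and ACGTG in 16.6%. AGGAAG was also found before *Egfl7* (in 2 of its 3 windows), *Emcn* and *Tie1*. A match is a description of the letters only.

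The TIE receptors, which act with the angiopoietins in vessel stability, did not pass the test in any comparison. *Tie1* had 12.3 ± 0.816 CPM in Sham, 12.3 ± 0.643 in Fracture and 12.6 ± 0.932 in Fracture+PDX (SD, n = 6 each), and over the 18 libraries it had the narrowest spread of the 10 relative to its level. Its difference between Fracture and Sham was -0.0012 on the log2 scale, with 2 SE on either side reaching from -0.13 to 0.12. *Tek* had 7.03 ± 0.764, 5.94 ± 0.917 and 6.41 ± 0.650 CPM in the same order. In *Tek*, 4 of the 6 Fracture libraries lay below every Sham library, with a log2 difference of -0.24 (SE 0.11, adjusted p = 0.283, edgeR).

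Genes of the secreted and surface products, *Egfl7*, *Emcn* and *Vwf*, did not pass the test in any comparison. *Egfl7*, whose intron also carries *Mir126a* and *Mir126b*, had 39.9 ± 1.34 CPM in Sham, 39.0 ± 2.02 in Fracture and 37.2 ± 3.81 in Fracture+PDX (SD, n = 6 each). *Emcn*, a sialomucin of capillary and venous endothelium, had 9.64 ± 0.930, 9.82 ± 0.608 and 9.62 ± 1.18 CPM. *Vwf*, the clotting protein stored in Weibel-Palade bodies, had 33.3 ± 6.10, 30.1 ± 3.25 and 31.8 ± 6.91 CPM. Their differences between Fracture and Sham were -0.03, 0.03 and -0.14 on the log2 scale, none past the test (adjusted p = 0.731, 0.896 and 0.561, edgeR).

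**Figure D2:**
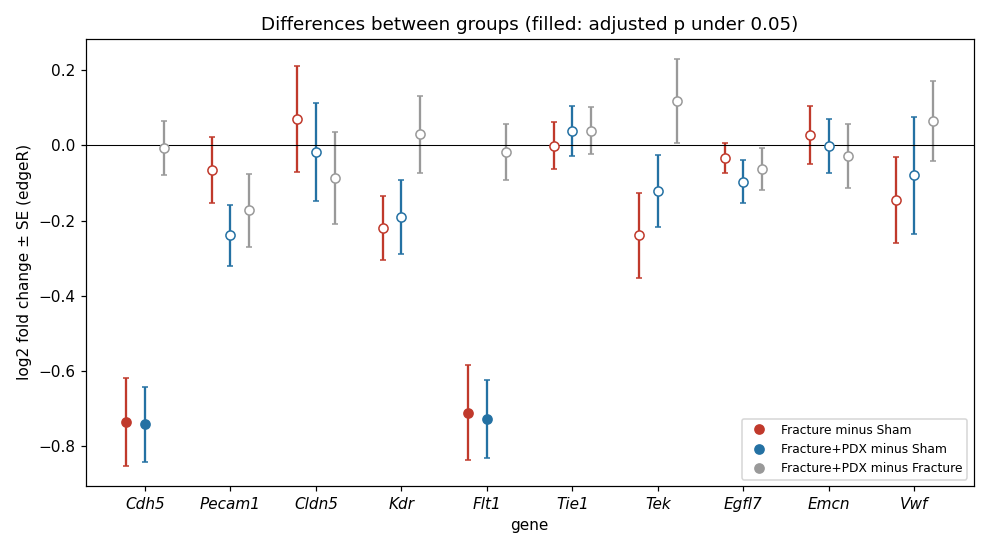
Log2 fold change (y axis, with SE as bars) of each endothelial gene in the 3 comparisons of groups, 12 libraries each; filled points have an adjusted p under 0.05 in edgeR. Cdh5 and Flt1 lie near -0.7 against Sham in both fracture groups, and no gene has a filled point for Fracture+PDX minus Fracture (with a placenta covariate, not drawn, Cdh5 and Flt1 are not called).

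No endothelial gene was called between the mice with and without PDX. For Fracture+PDX against Fracture, 20562 genes were tested with edgeR and 0 (0%) were called. Before adjustment 1113 genes had a p under 0.05, and 0 of the 10 endothelial genes were among them. The endothelial log2 differences ran from -0.17 for *Pecam1* (SE 0.097, adjusted p = 0.917) to 0.12 for *Tek* (SE 0.11, adjusted p = 0.968). For *Cdh5* the difference was -0.0070 (SE 0.072) and for *Flt1* -0.017 (SE 0.075). With 2 SE on either side the intervals were -0.15 to 0.14 and -0.17 to 0.13, and the log2 differences of Sham from Fracture, 0.73 and 0.71 in size, lay outside them.

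Fracture+PDX was also compared with Sham, which shares its Sham libraries with the first comparison. Of 20574 genes tested, 925 (4.50%) were called, 447 (2.17%) higher and 478 (2.32%) lower. Of the 10 endothelial genes 0 were called higher and 2 lower, again *Cdh5* and *Flt1*. The median of the 10 was -0.11 on the log2 scale, and that of all genes was -0.0013. The placenta genes had a median of -2.23 in this comparison, and with them as a covariate 0 of the 10 and 0 of all genes were called, with 999 of all genes at an unadjusted p under 0.05 (edgeR).

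*Cdh5* and *Flt1* also varied together from mouse to mouse, apart from the other endothelial genes. As a description over 18 libraries, the deviations of their log2 CPM from the group means had a Pearson r of 0.92, whereas the 28 pairs among the other 8 genes had a median r of 0.22 and ran from -0.28 to 0.58. The highest r of *Cdh5* with any of the other 8 was 0.24 (*Tek*), and that of *Flt1* was 0.11 (*Cldn5*). Among 21339 genes, those most like *Cdh5* were *Flt1*, *Epcam* (r = 0.91), *Il1r2* (0.89), *Serpinb9d* (0.87) and *Serpinb9f* (0.86). Those most like *Flt1* were *Cdh5*, *Serpinb9f* (0.91), *Ada* (0.89), *Tex19* (0.89) and *Epcam* (0.88).  The r of the placenta genes, taken in the same way, was 0.74 with *Flt1* and 0.58 with *Cdh5*. What links these genes was not tested. Libraries share their depth and preparation, and these r values carry no test.

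**Figure D3:**
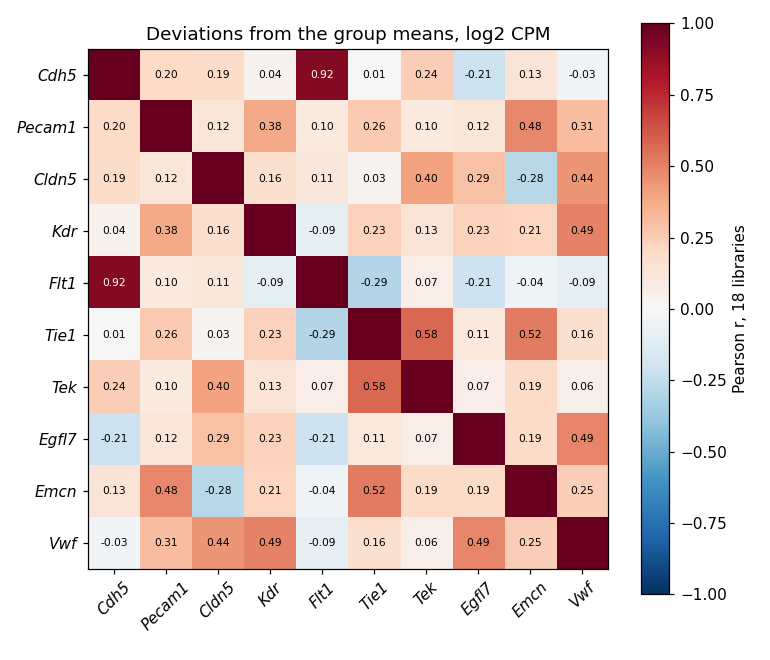
Pearson r between the endothelial genes over 18 libraries (color, -1 to 1), from the deviations of log2 CPM from the group means. Cdh5 and Flt1 reach 0.92, and the 28 pairs among the other 8 genes run from -0.28 to 0.58.

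Relative to the other endothelial genes of the same library, the pair stood higher in Sham. *Cdh5* lay 1.16 ± 0.242 (SD, n = 6) above the mean log2 CPM of the other 8 in Sham, 0.51 ± 0.211 in Fracture and 0.52 ± 0.126 in Fracture+PDX. *Flt1* lay 1.35 ± 0.266, 0.73 ± 0.246 and 0.73 ± 0.151 above it. The mean log2 CPM of the other 8 was 4.05 ± 0.0765 in Sham, 3.97 ± 0.104 in Fracture and 3.95 ± 0.122 in Fracture+PDX.

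The placenta genes moved with *Cdh5* and *Flt1*. Of the 16, 0 were called higher and 4 lower in Fracture than in Sham (1.83% of all genes were called lower), with a median of -1.79 on the log2 scale, and 13 were called lower in Fracture+PDX than in Sham (2.32% of all genes), with a median of -2.23. The mean log2 CPM of the 16 ran from 2.36 (female 3) to 4.04 (female 2) in Sham, from -0.25 (male 3) to 2.86 (female 3) in Fracture and from -0.48 (female 1) to 1.95 (male 1) in Fracture+PDX. Sham female 3 was the lowest Sham library in the placenta genes, in *Cdh5* and in *Flt1*, and Sham female 2 was the highest in all 3. Fracture male 3, the lowest Fracture library in the placenta genes, was also the lowest in *Cdh5* (19.4 CPM) and *Flt1* (21.1 CPM). Other libraries did not follow this order. Fracture+PDX female 1, the lowest of its group in the placenta genes, had 21.8 CPM of *Cdh5* and 24.8 CPM of *Flt1*, within the range of its group. Fracture female 3 lay above Sham female 3 in the placenta genes (2.86 against 2.36) and had 24.2 against 26.5 CPM of *Cdh5* and 29.4 against 29.6 CPM of *Flt1*. As background, *Flt1* is also strongly transcribed in the trophoblast of the placenta.

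Within groups the relation was given by a slope, the change of a gene in log2 units per log2 unit of the placenta genes, fitted across 21340 genes and 18 libraries with sex and group as covariates (edgeR). Of these genes 86 (0.403%) were called, and of the 10 endothelial genes 0. The slope of *Flt1* was 0.17 (SE 0.039, unadjusted p = 0.000375, adjusted p = 0.0823, edgeR). That of *Cdh5* was 0.13 (SE 0.045, unadjusted p = 0.0108, adjusted p = 0.918, edgeR). As a description, deviations from the group means had a Pearson r with the placenta genes of 0.74 for *Flt1* and 0.58 for *Cdh5*. For the other 8 endothelial genes this r ran from -0.45 (*Kdr*) to -0.17 (*Cldn5*). The slopes of the other 8 were all negative, from -0.11 (*Vwf*) to -0.03 (*Egfl7*), and the median of all genes was -0.00021. With the placenta genes as a covariate, 1 of all genes was called in Fracture against Sham. The fracture groups were lower in the placenta genes than Sham, so group and covariate share much of their variation.

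**Figure D4:**
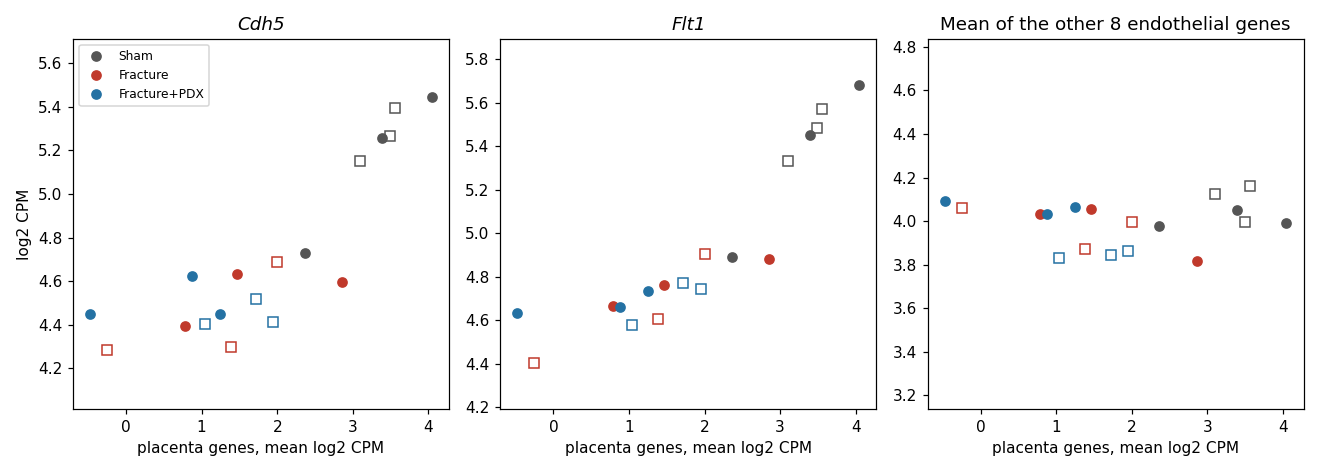
Log2 CPM of Cdh5 (left), Flt1 (middle) and the mean of the other 8 endothelial genes (right) against the mean log2 CPM of 16 placenta genes in 18 libraries; squares are males, circles females, and the y axes differ in position but span the same 1.7 units. Apart from Sham female 3, the Sham libraries lie highest in the placenta genes, in Cdh5 and in Flt1, and the mean of the other 8 stays between 3.82 and 4.16.

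Skeletal muscle genes varied widely between libraries and none was called. The median of the 11 was 2.02 higher in Fracture than in Sham and 1.87 lower in Fracture+PDX than in Fracture on the log2 scale, with 0 of 11 called in either comparison. Of all genes 2.92% and 0% were called in these comparisons. In the slopes on the muscle genes 92 of all genes (0.431%) were called and 0 of the 10 endothelial genes. *Cdh5* had a slope of -0.0011 (SE 0.028) and *Flt1* of -0.020 (SE 0.030). The muscle covariate, also chosen after seeing the data, left 54 of all genes called in Fracture against Sham. In the slopes on red blood cell genes 79 of all genes (0.370%) and 0 of the 10 were called.

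Other endothelial genes showed few calls. On a wider list of 28 endothelial genes, 0 were called in either direction in Fracture against Sham, with 7 values above 0, 21 below and a median of -0.10. Fracture+PDX against Sham gave 0 calls higher and 2 lower, where 2.17% of all genes were called higher and 2.32% lower, and both calls were lost with the placenta covariate, which left 0 of all genes called. These were *Esam*, an adhesion molecule of endothelial tight junctions (19.1 ± 1.20 CPM in Sham and 15.9 ± 1.38 in Fracture+PDX, log2 fold change -0.26, adjusted p = 0.0373, edgeR), and *Itm2a* (102 ± 19.5 and 74.3 ± 4.69 CPM, log2 fold change -0.43, adjusted p = 0.00811, edgeR), the most abundant gene of the list at 44.7 FPKM. The summed level of the 28 genes ran from 448 to 537 CPM in Sham, from 447 to 492 in Fracture and from 408 to 471 in Fracture+PDX.

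Of 20 genes for the barrier, its junctions and transporters, 3 fell after fracture and 0 rose, where 1.83% of all genes were called lower and 1.09% higher. With the placenta covariate 1 of all genes was called in this comparison, so at least 2 of these 3 calls were lost. Group and covariate share much of their variation, so such losses, in this and the other lists, do not decide about any single gene. *Tjp1* (ZO-1, the scaffold of tight junctions) had 73.8 ± 6.95 CPM in Sham and 61.6 ± 3.80 in Fracture, or -0.26 on the log2 scale (adjusted p = 0.0319, edgeR). *F11r* (JAM-A, a junctional adhesion molecule) had 11.4 ± 0.844 and 8.81 ± 1.19 CPM, or -0.37 (adjusted p = 0.0463, edgeR), and *Slc2a1* (the glucose transporter GLUT1) 84.8 ± 6.77 and 72.0 ± 5.98 CPM, or -0.24 (adjusted p = 0.0492, edgeR). *Tjp1* and *F11r* were also called in Fracture+PDX against Sham (-0.24 with adjusted p = 0.0490 and -0.35 with adjusted p = 0.0168, edgeR), and *Slc2a1* was not (-0.18, adjusted p = 0.125, edgeR). In that comparison 2.32% of all genes were called lower, and 0 of all genes were called with the placenta covariate, so both calls were lost. These genes are not confined to endothelium, and *Slc2a1* also marks perineurium. The median of the 20 was -0.12 in Fracture and -0.19 in Fracture+PDX against Sham, and the highest in FPKM were *Jam3* (26.2 FPKM) and *Slc7a5* (21.1 FPKM), neither of them called.

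Genes of vessel subtypes were called singly, in comparisons where 2.92% (Fracture against Sham) and 4.50% (Fracture+PDX against Sham) of all genes were called. With the placenta covariate at most 1 of the calls after fracture and none of those with fracture plus PDX remained. Of 12 arterial genes, *Sema3g* (11.6 FPKM) and *Hey1* (7.53 FPKM) the highest, 0 were called in any comparison, and their medians were -0.05 (Fracture) and -0.13 (Fracture+PDX) against Sham. Of 11 venous or activated genes, *Icam1*, the leukocyte adhesion molecule of inflamed endothelium, fell from 5.25 ± 0.498 to 3.93 ± 0.343 CPM after fracture (log2 fold change -0.42, adjusted p = 0.0406, edgeR), and it was not called in Fracture+PDX against Sham (-0.34, adjusted p = 0.0766). *Ackr1*, the chemokine-binding Duffy receptor of venules and red cells, rose from 49.6 ± 3.49 in Sham to 60.8 ± 7.24 CPM in Fracture+PDX (0.30, adjusted p = 0.0423, edgeR), and it was not called in Fracture against Sham (0.16, adjusted p = 0.206). Of 9 fenestrated or angiogenic genes, *Ednrb*, the endothelin B receptor, which glia also carry, rose from 132 to 167 CPM after fracture (0.35, adjusted p = 0.00978, edgeR) and to 167 CPM with fracture plus PDX (0.36, adjusted p = 0.0274, edgeR). *Plvap*, the diaphragm protein of fenestrated capillaries, had 13.8, 13.6 and 14.7 CPM in Sham, Fracture and Fracture+PDX, with none of its differences called. Of 7 lymphatic genes 1 was called, *Reln*, lower in Fracture+PDX than in Sham (-0.37, adjusted p = 0.00946, edgeR) and not called in Fracture against Sham (-0.23, adjusted p = 0.184). *Reln* had 108 CPM in Sham and 82.8 in Fracture+PDX, whereas *Prox1* of the same list had 0.28 CPM in both. Which cells carry *Reln* was not tested. The medians against Sham were -0.22 in Fracture and -0.24 in Fracture+PDX for the venous list, -0.02 and -0.13 for the fenestrated list and -0.23 and -0.32 for the lymphatic list, whose highest genes were *Pdpn* (6.87 FPKM) and *Ccl21a* (5.91 FPKM).

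The ligands of the receptors were compared in the same way, with 2.92% of all genes called in Fracture and 4.50% in Fracture+PDX against Sham. Of 17 VEGF and angiopoietin ligands, coreceptors and partners, 0 were called in Fracture against Sham, with 2 values above 0, 15 below and a median of -0.07. *Vegfa*, the main ligand of FLT1 and KDR, had 49.5 CPM in Sham, 46.1 in Fracture and 45.7 in Fracture+PDX, with log2 differences from Sham of -0.10 and -0.11 (adjusted p = 0.239 and 0.247, edgeR). *Angpt1*, the agonist of TEK, differed by -0.07 and -0.02, and *Angpt2*, its context-dependent antagonist, by -0.08 and -0.13, none called. *Thbs1*, an inhibitor of angiogenesis, was the only call, lower in Fracture+PDX (117 ± 6.37 CPM) than in Sham (136 ± 8.08 CPM), or -0.21 on the log2 scale (adjusted p = 0.0233, edgeR), a call lost with the placenta covariate. The highest of the 17 in FPKM, *Epas1* (HIF-2 alpha, 21.6 FPKM) and *Vegfb* (21.3 FPKM), were not called. No gene of these vascular lists was called between Fracture+PDX and Fracture, where 0 of all genes were.

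**Figure D5:**
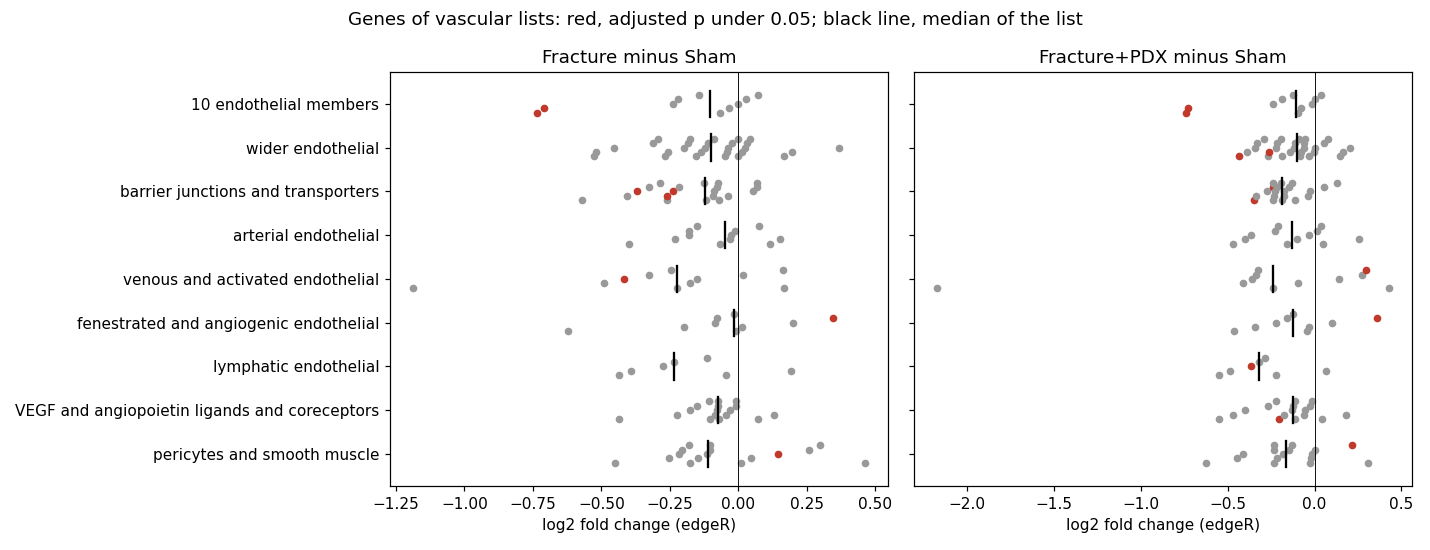
Log2 fold change (x axes, edgeR, which differ in range) of every tested gene of 8 vascular lists and the 10 endothelial genes, in Fracture and Fracture+PDX against Sham; red points have an adjusted p under 0.05 and the black line is the median of the list. Cdh5 and Flt1 lie apart from the other 8 endothelial genes in both panels, and the list medians run from -0.32 to -0.02.

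Genes of cells that surround the vessels, and of the other cells of the ganglion, were called as follows, beside 1.09% of all genes higher and 1.83% lower in Fracture and 2.17% higher and 2.32% lower in Fracture+PDX against Sham. With the placenta covariate at most 1 of these calls in Fracture and none in Fracture+PDX remained. Of 16 pericyte and smooth muscle genes, *Mcam* (CD146) was called, higher by 0.14 (adjusted p = 0.0210) in Fracture and by 0.21 (adjusted p = 0.00208) in Fracture+PDX than in Sham (edgeR), and the medians of the list were -0.11 and -0.16. Values above 0 numbered 6 of the 16 in Fracture and 3 in Fracture+PDX, and *Pdgfrb* and *Rgs5* were at -0.18 and -0.22 in Fracture, not called. In which cells *Mcam* differed was not tested. The 8 neuron genes had values above 0 in both comparisons with Sham, with 3 called higher in each (*Tubb3*, *Nefm* and *Uchl1*, then *Rbfox3*, *Tubb3* and *Uchl1*) and medians of 0.13 and 0.15. Of 8 fibroblast and perineurium genes 2 were called lower after fracture, *Dcn* (-0.33, adjusted p = 0.0331, edgeR) and *Slc2a1*, with a median of -0.24. In Fracture+PDX against Sham 0 of these 8 were called, with a median of -0.28. Of 8 macrophage genes 2 were called lower after fracture, *Csf1r* (-0.47, adjusted p = 0.00733) and *Adgre1* (-0.56, adjusted p = 0.0139), with a median of -0.28 (edgeR). In Fracture+PDX against Sham *Csf1r* was called lower (-0.34, adjusted p = 0.00431, edgeR), *Adgre1* was not (adjusted p = 0.327), 3 of the 8 values lay above 0 and the median was -0.20. The summed neuron genes ran from 17228 to 18719 CPM in Sham and from 18966 to 20241 CPM in Fracture. Their part in the endothelial values, which are shares of the same total, was not tested.

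The endothelial genes did not differ between the sexes by the test used. Over all 18 libraries with group as a covariate, 62 of 21340 genes (0.291%) were called between females and males, and 0 of the 10 endothelial genes, of which 0 had an unadjusted p under 0.05. Their log2 differences (female minus male) ran from -0.06 for *Kdr* to 0.12 for *Vwf*. *Cdh5* was lower after fracture in both sexes, with differences of mean log2 CPM of -0.85 in males and -0.60 in females, and *Flt1* had differences of -0.82 and -0.57. The interaction of sex with the comparison was called for 0 of the 10 genes. It was called for 0 of all genes (0%) in Fracture against Sham, with 1488 at an unadjusted p under 0.05, and for 1 gene (0.00486%) in Fracture+PDX against Fracture and 1 gene (0.00486%) in Fracture+PDX against Sham.

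*Vwf* had the largest endothelial interaction. From Sham to Fracture+PDX its mean log2 CPM differed by -0.43 in males and 0.28 in females, an interaction of 0.74 (SE 0.21, unadjusted p = 0.00492, adjusted p = 0.609, edgeR), which did not pass the correction. In the same comparison *Cldn5* differed by -0.31 in males and 0.26 in females (interaction adjusted p = 0.664) and *Kdr* by -0.43 and 0.03 (adjusted p = 0.664), and all 10 interactions were positive, with a median of 0.15 against -0.0032 for all genes. Each sex had 3 libraries per group.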

How the data were processed

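Poly(A) RNA of L3–L5 DRG was sequenced as stranded libraries. The authors deposited raw read counts per gene and FPKM values, normalized by them for transcript length and depth, for 18 libraries. The submitters' processing notes name cutadapt 1.10, FastQC, HISAT2, StringTie and build mm10 (GRCm38), and whether counting used strand is not given in the sources used here. *Egfl7* overlaps *Gm20532* and *Agpat2*, and *Cdh5* an antisense transcript.

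The counts were tested with edgeR 4.0.16 under R 4.3.3 (filterByExpr with a minimum count of 10 and a minimum total of 15, TMM, robust quasi-likelihood fits, sex and group, 12 libraries per comparison, 18 for the sex comparison), with Benjamini-Hochberg adjustment over all genes tested. SE is the size of the log2 fold change divided by the root of F. Log2 CPM used a prior count of 2. Alternatives used DESeq2 1.42.0 and limma 3.58.1. The rule for the members uses no measured value, but members and lists were chosen with earlier results of these data known. Named were the 10 members, list genes that were called, the 2 list genes highest in FPKM, and the 10 genes most like the members' mean, of which 6 are given. *Vegfa*, *Angpt1*, *Angpt2*, *Plvap* and the genes most like single members were added after their values were seen. Where a symbol had several identifiers, the one with most counts was used. Groups were taken from the labels, with 6 libraries each. The columns of the Sham libraries are headed Con in the deposited tables and were matched to Sham by sex and number, as the only group left, so every comparison with Sham rests on that match.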

Additional observations from a re-analysis of the deposited data

How the results depend on the processing

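*Cdh5* and *Flt1* were called lower than in Sham, in both comparisons, with DESeq2, with upper-quartile normalization, with no low-count filter or a stricter one (10 counts in each library), without sex, with all 18 libraries fitted together, with limma on log2(FPKM + 1) or log2(FPKM + 0.1), and without any single library of the 12 (adjusted p at most 0.0495). Whether mice of the same number belong together is not given in the labels, and the values below do not settle it. Same-numbered libraries correlated between -0.07 and 0.13. Among libraries of the same sex in the other group, the same number was the best match in 4 of 6 cases for Fracture against Sham. It was so in 4 of 6 for Fracture+PDX against Fracture and in 1 of 6 for Fracture+PDX against Sham. With a replicate block, 0 of the 10 and 118 of all genes were called in Fracture against Sham (*Cdh5* -0.73, adjusted p = 0.0513; *Flt1* -0.70, adjusted p = 0.0742; edgeR) and 486 of all genes in Fracture+PDX against Sham, where both stayed called. DESeq2 called 1511, 15 and 1620 genes in Fracture against Sham, Fracture+PDX against Fracture and Fracture+PDX against Sham, and 332 between the sexes. With the placenta covariate, added after seeing the data, 1 gene and 0 genes were called in Fracture and Fracture+PDX against Sham, and 0 and 0 of the 10. With the muscle covariate, also added, 54 genes and 0 of the 10 were called in Fracture against Sham. The cause of these changes was not tested. Leaving out the 2 libraries nearest in placenta genes, added too (Sham female 3 with Fracture female 3 or Fracture+PDX male 1), moves the groups further apart in those genes and so bears on no call of *Cdh5* or *Flt1*. *Pecam1* was then called in Fracture+PDX against Sham (-0.34, adjusted p = 0.0372, edgeR).

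Counts over all genes depended on single libraries. Fracture against Sham ran from 213 to 710, with 213 to 380 without Sham male 2, male 3, female 1 or female 2 or without Fracture male 1, male 2, male 3 or female 2. Fracture+PDX against Sham ran from 498 to 1008, with 498 to 560 without Sham male 2, male 3 or female 2 or without Fracture+PDX male 3 or female 1. Fracture+PDX against Fracture ran from 0 to 1, with 1 without Fracture+PDX female 3. Between the sexes they ran from 24 to 86, with 24 to 41 without any of 11 libraries.

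Directions turned only for values near 0 that were not called. In Fracture against Sham these were *Tie1* (0.0035 with upper-quartile normalization, 0.035 without the 2 libraries, -0.029 to 0.019 without single libraries), *Emcn* (-0.029 and -0.078 with the placenta and the muscle covariate, -0.011 to 0.067 without single libraries) and *Cldn5* (-0.023 to 0.18). In Fracture+PDX against Fracture they were *Cdh5* (0.021 with the placenta covariate, -0.042 to 0.054), *Flt1* (0.028 with it, -0.074 to 0.039), *Kdr* (-0.00165 with it, -0.048 to 0.089), *Emcn* (0.066 with the muscle covariate, -0.075 to 0.027) and *Vwf* (-0.0013 to 0.12). In Fracture+PDX against Sham they were *Emcn* (0.0055 with upper-quartile normalization, 0.0026 without sex, 0.00410 with the muscle covariate, 0.022 without the 2 libraries, -0.019 to 0.038), *Tie1* (-0.16 with the placenta covariate), *Cldn5* (-0.086 to 0.079) and *Vwf* (-0.15 to 0.011). Between the sexes they were *Cdh5* (-0.010 to 0.085), *Flt1* (-0.043 to 0.063), *Tek* (-0.071 to 0.013) and *Cldn5* (-0.054 to 0.072). The endothelial genes had between 317 and 4135 counts per library.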

Other observations

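Blood cells reach the ganglion through its vessels, and their genes varied widely between mice. The 8 neutrophil genes summed to between 74.8 and 338 CPM in Sham, between 79.9 and 173 CPM in Fracture and between 71.4 and 431 CPM in Fracture+PDX. Their median log2 difference was -0.82 in Fracture against Sham and 1.13 in Fracture+PDX against Fracture, with 0 of 8 called in either. Of all genes 2.92% were called in Fracture against Sham and 0% in Fracture+PDX against Fracture. The 8 platelet and megakaryocyte genes summed to between 12.4 and 21.5, 10.7 and 20.6, and 12.6 and 39.3 CPM in the same groups. Their median was 0.74 in Fracture+PDX against Fracture, with 0 called, where 0 of all genes were. *Vwf*, which megakaryocytes also make, differed by 0.06 in that comparison (SE 0.11, adjusted p = 0.989, edgeR). The 7 red blood cell genes summed to between 781 and 2223 CPM in Sham, 982 and 1362 CPM in Fracture and 504 and 2896 CPM in Fracture+PDX. In each comparison of groups 0 of them were called, and in Fracture+PDX against Sham 4.50% of all genes were.

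Among glia, 0 of 6 satellite glia genes were called after fracture, and *Kcnj10*, their potassium channel, was called higher in Fracture+PDX against Sham (0.27, adjusted p = 0.0493, edgeR), a call lost with the placenta covariate. Of all genes 2.92% were called after fracture and 2.17% were called higher in Fracture+PDX than in Sham. The 7 Schwann cell genes had values below 0 in both comparisons with Sham, with medians of -0.22 and -0.20 and 0 called.

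The genes most like the mean of the 10 endothelial genes over 18 libraries, after each library's deviation from its group mean, were led by *Gm44645* (Pearson r = 0.84), *Glo1-ps* (0.82), *Erp44* (0.81), *Mipep* (0.80) and *Dap* (0.80), and the arterial connexin gene *Gja4* was the seventh (0.76). *Emcn* was most like *Nfil3* (0.93) and *Cldn5* most like *Cxcl12* (0.84). These values describe 18 libraries and carry no test.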
